A study of Homo sapiens with 12 samples.

Results

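Immediate early genes are genes whose transcription starts within minutes of a stimulus from factors already present in the cell, without new protein synthesis. Most encode transcription factors. FOS and JUN proteins pair through leucine zippers into the factor AP-1, EGR1 and KLF6 are zinc finger factors, and the messages are usually short-lived and fall again soon after a stimulus. Growth factor signalling through MAP kinases and serum response factor, calcium signalling through CREB, and cell stress are known inducers.

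The genes described are the 10 rows of the deposited table whose symbol is EGR1, FOS, FOSB, FOSL1, JUN, JUNB, ARC, IER2, IER3 or KLF6, out of 56337 distinct gene entries. By their known products, EGR1, FOS, FOSB, FOSL1, JUN, JUNB and KLF6 are DNA-binding factors, IER2 is a nuclear regulator, and ARC (a synaptic protein that forms capsid-like particles) and IER3 (a regulator of survival signalling) are not transcription factors, so the set is called immediate early genes here. The 10 were selected on measured FPKM, with their change after bafilomycin in these samples known. Their changes after bafilomycin are therefore given as a description, without p-values.

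HEK293T cells derive from human fetal kidney and express the large T antigen of SV40. They are labelled wild type and were grown in RPMI with 10% serum at 21% oxygen. FAC (ferric ammonium citrate), which supplies iron, and bafilomycin A1 (BafA1), which blocks the proton pump of lysosomes, were combined in 4 groups of 3 libraries. Control cells had neither agent, BafA1 cells had 10 nM BafA1 for 24 h, FAC cells had 0.1 mg/ml FAC from 24 h before that period, and FAC+BafA1 cells had FAC for 24 h and then 10 nM BafA1 for 24 h. All levels are thus from a late time, 24 h after BafA1, and no earlier time was analysed here. Levels are FPKM, fragments scaled to transcript length and library depth, so comparisons between genes and between groups are approximate. All FPKM of a library summed to 600261 to 604483 in BafA1 and to 637374 to 649406 in control. Median-of-ratios scaling was among the alternatives run. Whether the numbered replicates were separate cultures is not given in the labels, so errors and p-values measure the spread between these libraries, which may be technical.

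Estimated depth was 34.0 to 37.5 M fragments per library. Mitochondrially encoded transcripts held 2.46 to 3.09% of all FPKM in BafA1 and 1.65 to 2.27% in control. They held 1.48 to 1.82% in FAC and 1.71 to 2.23% in FAC+BafA1, and the part of this difference in the results below was not tested. LIN28B, NEFL, NEFM and INA, genes that HEK293 cells are known to express, had means above 1 FPKM. PAX2 and LHX1, kidney developmental genes, were near or under 1. Markers of other cells were low: summed levels were 0.63 to 2.67 FPKM for 8 keratinocyte or HeLa genes, 2.24 to 4.63 for 10 blood genes and 3.07 to 8.59 for 8 fibroblast genes. Gene entries were filled differently with and without FAC: 627 entries were listed at 0 throughout one side while every library of the opposite side had at least 1 FPKM. None of the 10 genes was among them.

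Stretches upstream of EGR1, FOS, FOSB and JUN are shown to mark motif matches. The motifs are the CArG box, the element bound by serum response factor, and the cAMP response core. The JUN stretch and the second FOS stretch hold the core alone. Whether such matches bear on the changes described below was not tested. Sequence is from hg38 at the start sites of the RefSeq table (GRCh38.p14), 5′ to 3′ on the gene's strand. Capitals mark CArG boxes and the cAMP response core TGACG or its reverse complement CGTCA.
EGR1, chr5:138465049-138465148, plus strand: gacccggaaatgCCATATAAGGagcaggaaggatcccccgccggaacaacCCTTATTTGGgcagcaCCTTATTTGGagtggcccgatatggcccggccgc
EGR1, chr5:138465329-138465428, plus strand: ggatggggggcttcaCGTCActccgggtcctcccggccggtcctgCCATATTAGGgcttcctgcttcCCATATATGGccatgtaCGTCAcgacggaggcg
FOS, chr14:75278468-75278567, plus strand: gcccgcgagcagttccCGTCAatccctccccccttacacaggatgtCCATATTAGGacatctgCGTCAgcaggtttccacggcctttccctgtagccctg
FOS, chr14:75278718-75278817, plus strand: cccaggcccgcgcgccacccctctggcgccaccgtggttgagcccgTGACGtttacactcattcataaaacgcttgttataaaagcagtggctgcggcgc
FOSB, chr19:45467656-45467755, plus strand: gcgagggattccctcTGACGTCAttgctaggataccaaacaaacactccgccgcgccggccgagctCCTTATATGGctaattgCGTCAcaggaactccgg
JUN, chr1:58784098-58784197, minus strand: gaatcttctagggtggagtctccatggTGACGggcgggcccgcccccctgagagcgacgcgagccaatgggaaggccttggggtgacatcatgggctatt

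Within 500 bases before the start and on either strand, EGR1 held 5 CArG boxes, FOS 1 and FOSB 1. JUN, JUNB, IER2 and KLF6 held no match, and FOSL1, ARC and IER3 have no entry in the table used. A CArG box occurred in 2.41% of 27305 such windows. The core TGACG was in the windows of EGR1, FOS, FOSB, IER2, JUN and JUNB, and in 31.5% of all windows. Its palindrome TGACGTCA, which contains the core on both strands, was in FOSB alone among the 7, and in 2.11% of windows. The EGR1 motif GCGNGGGCG was in EGR1, FOSB and KLF6 and in 10.8% of windows. The AP-1 motif TGANTCA (12.1% of windows) and the ETS motif CCGGAAGT (4.26%) had no match in the 7. These are letter matches and not measured binding. Variants of these patterns were not searched, so the lack of a match does not show that a site is absent.

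**Figure D1:**
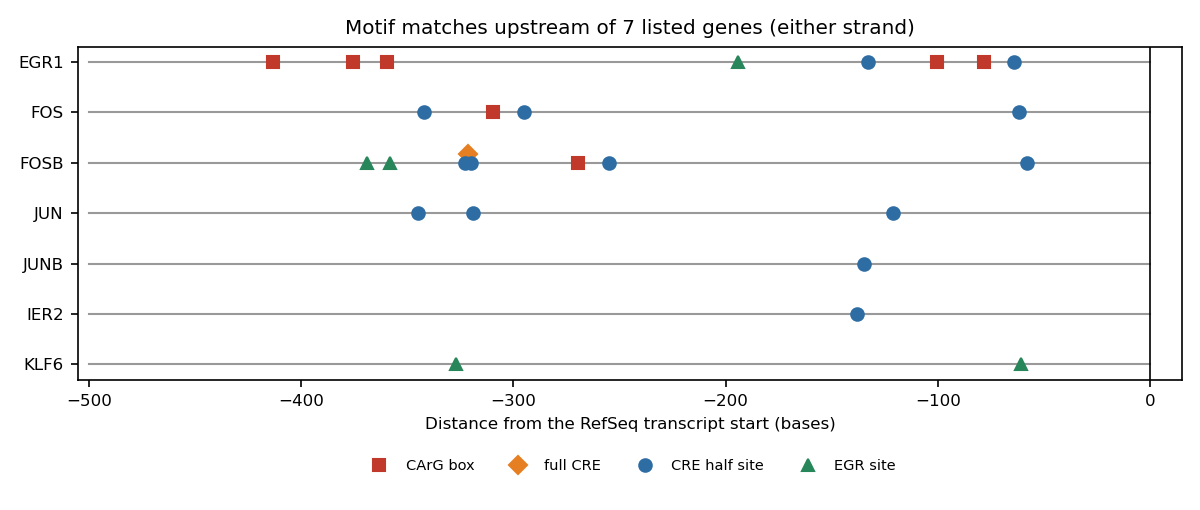
Positions of motif matches on the 500 bases before the RefSeq start of 7 of the genes (x axis, bases from the start; each symbol is the centre of a match on either strand). EGR1 holds 5 CArG boxes, FOS and FOSB 1 each, and the other 4 genes show none.

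BafA1 without added iron left 9 of the 10 transcripts far above control, with no overlap between BafA1 and control libraries (30.4% of all genes tested did so), and 1, IER3, overlapping control. The transcripts fell into 3 ranges: EGR1, FOS and ARC rose from under 1 FPKM by factors of 82.8 to 387, FOSL1 by 19.6, and FOSB, JUN, IER2, KLF6 and JUNB by 2.80 to 5.43. When FAC had been given first, the same 9 were still above their FAC control after BafA1, without overlap (18.8% of all genes), but the factor for EGR1 was 25.7 and for the other 8 between 1.76 and 8.89. With FAC alone, JUN and KLF6 lay above control without overlap (1.17 and 1.19 times; 9.88% of all genes), FOSB and IER2 lay below it without overlap (0.614 and 0.907 of control; 10.5% of all genes), and the other 6 overlapped control.

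**Figure D2:**
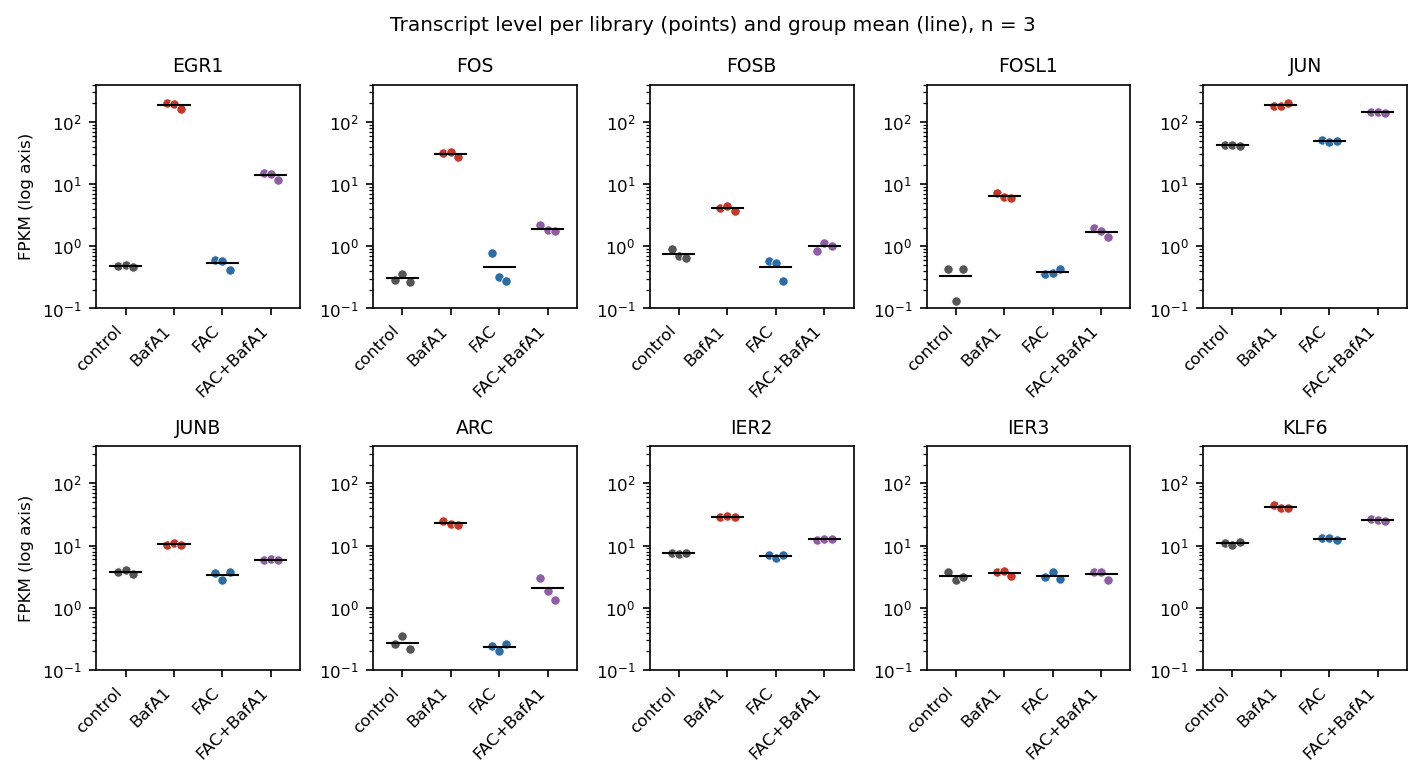
FPKM of the 10 genes on a log axis in each library (points) with the group mean (line), 3 libraries per group. In 9 panels the BafA1 points lie above all others and the FAC+BafA1 points lie between them and the FAC points; IER3 lies between 2.77 and 3.88 FPKM in every library.

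EGR1, a zinc finger factor that binds GC-rich promoters, was at 0.49, 0.50 and 0.47 FPKM in the control libraries and at 203.4, 196.9 and 164.1 FPKM after BafA1. In FAC it was at 0.61, 0.58 and 0.42 FPKM and in FAC+BafA1 at 15.1, 14.6 and 11.6 FPKM. Control and FAC overlapped, FAC+BafA1 lay wholly above both, and BafA1 lay wholly above FAC+BafA1. The mean rose 387 ± 26.0 times with BafA1 (ratio of means with its SE, n = 3) and 25.7 ± 3.48 times with BafA1 in FAC-treated cells. By mean level among the 13682 genes tested, EGR1 was at rank 13162 in control and 452 in BafA1, against 13149 with FAC alone and 6420 with both.

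FOS, the founding FOS subunit of AP-1, had 0.29, 0.36 and 0.27 FPKM in control and 31.9, 32.9 and 27.5 after BafA1. It had 0.78, 0.32 and 0.28 FPKM in FAC and 2.19, 1.81 and 1.75 in FAC+BafA1. The first FAC library stood above its partners, and the FAC+BafA1 libraries still lay above all 3. FOS thus rose 100.3 ± 10.4 times without FAC and 4.17 ± 1.48 times with it (SE, n = 3). Without FAC replicate 1 the latter ratio was 6.39.

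FOSL1 encodes FRA-1, a FOS protein with no strong activation domain. Its level was 0.43, 0.13 and 0.43 FPKM in control, and 7.10, 6.31 and 6.02 after BafA1, against 0.36, 0.37 and 0.43 with FAC alone and 1.99, 1.77 and 1.43 with both. The low control library rests on few fragments, and control and FAC overlapped. The rise was 19.6 ± 6.03 times without FAC and 4.47 ± 0.491 times with FAC.

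FOSB, the closest relative of FOS, had the smallest rise of the 3 FOS genes in the set. It was at 0.92, 0.70 and 0.66 FPKM in control and at 4.09, 4.52 and 3.76 in BafA1, a rise of 5.43 ± 0.646 times. FAC libraries had 0.59, 0.53 and 0.28 FPKM, all under control, and FAC+BafA1 libraries 0.85, 1.13 and 1.02, which overlapped control. FOSB overlaps ERCC1, a DNA repair gene on the opposite strand at 23.6 to 26.7 FPKM in the 4 group means, and whether counting used the strand is not given in the sources used here.

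JUN, the main partner of FOS proteins, was the only one of the 10 that was abundant in every group. It was at 42.1, 42.6 and 41.1 FPKM in control and at 180.9, 183.6 and 200.2 in BafA1. In FAC it was at 50.5, 47.6 and 49.5 FPKM, and in FAC+BafA1 at 147.0, 142.1 and 140.7. No 2 groups overlapped. The rise was 4.49 ± 0.151 times without FAC and 2.91 ± 0.0629 times with FAC, so that FAC+BafA1 cells held 3.42 ± 0.0575 times the JUN of control cells. After BafA1 alone the means of EGR1 (188.1 FPKM) and JUN (188.3 FPKM) were alike, although JUN had started at 41.9 FPKM and EGR1 at 0.487.

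JUNB, a JUN protein that can restrain JUN activity, was at 3.74, 4.06 and 3.50 FPKM in control and at 10.2, 11.1 and 10.3 in BafA1. It was at 3.6, 2.82 and 3.72 FPKM in FAC and at 5.88, 5.99 and 5.96 in FAC+BafA1. Control and FAC overlapped and the other groups were apart, with rises of 2.80 ± 0.141 and 1.76 ± 0.147 times. JUNB overlaps HOOK2, a microtubule linker gene on the opposite strand with means of 5.84 to 8.20 FPKM, and reads of the pair cannot be told apart if counting ignored strand.

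ARC followed EGR1 and FOS most closely in size. Its libraries were at 0.26, 0.35 and 0.22 FPKM in control, at 24.98, 22.21 and 21.53 after BafA1, at 0.24, 0.20 and 0.26 with FAC alone and at 3, 1.87 and 1.35 with both. The FAC+BafA1 libraries spread over 2 times but all exceeded FAC and control. The rises were 82.8 ± 12.1 and 8.89 ± 2.19 times.

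IER2, a small nuclear protein induced by serum, was at 7.58, 7.40 and 7.64 FPKM in control and at 28.8, 29.5 and 29.1 in BafA1. FAC libraries had 7.04, 6.43 and 7.04 FPKM and FAC+BafA1 libraries 12.3, 12.6 and 12.7, with no overlap between any groups. KLF6, a Krüppel-like zinc finger factor, was at 10.96, 10.36 and 11.27 FPKM in control, 44.3, 40.5 and 39.6 after BafA1, 13.4, 13.3 and 12.2 with FAC alone and 26.6, 26.2 and 24.9 with both, also without overlap. Their rises were alike without FAC (3.86 ± 0.0466 for IER2 and 3.82 ± 0.162 for KLF6) and with FAC (1.84 ± 0.0569 and 2.00 ± 0.0721).

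IER3 stood apart from the other 9. It was at 3.70, 2.79 and 3.12 FPKM in control, 3.82, 3.88 and 3.19 after BafA1, 3.15, 3.74 and 2.86 with FAC alone and 3.82, 3.77 and 2.77 with both, and all groups overlapped. Its log2 change with BafA1 was 0.14, with a 95% interval of -0.12 to 0.40. The genes were chosen with their BafA1 values known. The interval therefore describes IER3 and does not test it against the other 9. IER3 overlaps 2 non-coding genes on the opposite strand, IER3-AS1 (means of 0.387 to 0.967 FPKM) and HCG20 (under 0.06 FPKM).

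For all 10 genes the mean order ended with FAC+BafA1 and then BafA1 as the highest, and the order of control and FAC varied. JUN, IER2 and KLF6 had 4 groups apart from each other. EGR1, FOS, FOSL1, JUNB and ARC had control and FAC overlapping, FOSB had control and FAC+BafA1 overlapping, and IER3 overlapped throughout. The 10 genes together took 0.0108 ± 0.000106% of all FPKM in control (SD, n = 3) and 0.0872 ± 0.00272% in BafA1, against 0.0120 ± 0.000370% with FAC alone and 0.0333 ± 0.00118% with both.

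Changes were then fitted across the 13682 genes that averaged 1 FPKM or more over the 12 libraries, on log2(FPKM + 1), with limma and Benjamini-Hochberg adjustment, and a gene was called at an adjusted p under 0.05. This scale understates the change of low genes. All 10 passed the minimum, but EGR1, FOS, FOSB, FOSL1 and ARC passed through the libraries with BafA1, since their control and FAC means were under 1 FPKM. The fit called 9 of 10 higher in BafA1 than in control, beside 67.1% of all genes called in either direction and 29.5% called higher. With FAC it called the same 9 higher after BafA1, beside 19.3% of all genes in either direction and 9.76% higher. Since the members were proposed with these changes known, nothing is read from either count. The call of FOSB with FAC was lost without FAC+BafA1 replicate 2 (log2 0.40).

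The log2 changes after BafA1 without and with FAC were 6.98 ± 0.10 and 3.26 ± 0.10 for EGR1, 4.60 ± 0.12 and 1.01 ± 0.12 for FOS, and 4.23 ± 0.15 and 1.28 ± 0.15 for ARC (limma SE). They were 2.50 ± 0.11 and 0.97 ± 0.11 for FOSL1, 1.54 ± 0.11 and 0.45 ± 0.11 for FOSB, 2.14 ± 0.04 and 1.52 ± 0.04 for JUN, and 1.28 ± 0.08 and 0.67 ± 0.08 for JUNB. For IER2 they were 1.82 ± 0.04 and 0.79 ± 0.04, for KLF6 1.84 ± 0.05 and 0.95 ± 0.05, and for IER3 0.14 ± 0.12 and 0.06 ± 0.12. The median of the 10 was 1.99 without FAC and 0.96 with FAC, where all genes tested had medians of -0.04 and 0.00059. Among all genes tested, EGR1 had the largest increase on this scale without FAC, with FOS at rank 3 and ARC at rank 5. With FAC, EGR1 was at rank 2, JUN at 16, ARC at 26 and FOS at 52.

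**Figure D3:**
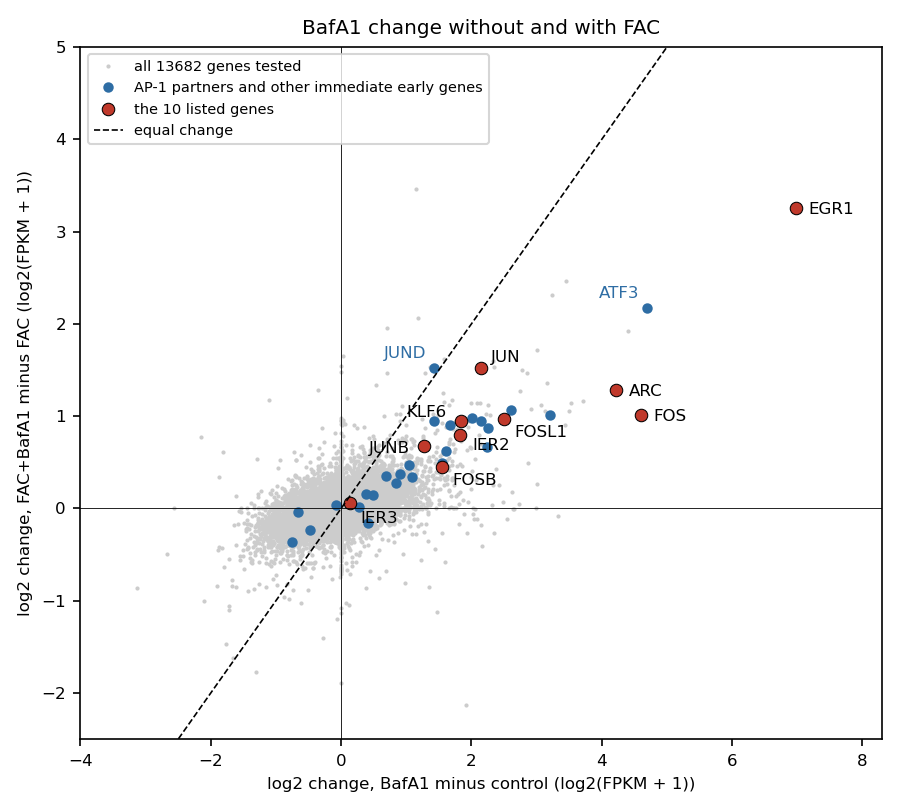
Log2 change after BafA1 without FAC (x axis) and with FAC (y axis) on log2(FPKM + 1) for all 13682 genes tested (grey), the 10 genes (red) and the tested AP-1 partners and other immediate early genes (blue). EGR1 lies at 6.98 and 3.26; all 10 lie below the line of equal change, IER3 close to the origin, while JUND lies near the line.

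In FAC compared with control, 2 of the 10 were called higher and 0 lower. Of all genes 9.56% were called, 4.72% higher and 4.84% lower, and a count of 2 in 10 is too small to set apart from that share. JUN rose by 0.23 ± 0.04 log2 units (limma adjusted p = 0.00135) and KLF6 by 0.23 ± 0.05 (limma adjusted p = 0.0118), each with 3 of 3 FAC libraries above every control library, as in 9.88% of all genes. The KLF6 call was lost without control replicate 2 (limma adjusted p = 0.0627), FAC replicate 1 (0.0595) or FAC replicate 2 (0.0557). FOSB and IER2 had all FAC libraries under all control libraries (10.5% of all genes) but were not called, at -0.27 ± 0.11 (limma adjusted p = 0.219) and -0.12 ± 0.04 (limma adjusted p = 0.13). With a pseudocount of 0.1 the FOSB change was -0.64 ± 0.22 (limma adjusted p = 0.119). For EGR1 the change was 0.05 with a 95% interval of -0.17 to 0.27, for FOS 0.14 (-0.12 to 0.41) and for ARC -0.05 (-0.38 to 0.28). These genes were under 1 FPKM in both groups, where this scale narrows both changes and intervals. Their changes with a pseudocount of 0.1 were 0.11 ± 0.13 for EGR1, 0.36 ± 0.26 for FOS and -0.17 ± 0.23 for ARC (limma SE), also not called. This comparison crosses the difference in how gene entries were filled with and without FAC.

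In BafA1-treated cells, prior FAC went with lower levels of the same 9 genes. FAC+BafA1 libraries lay under every BafA1 library for each of them (30.8% of all genes), and the fit called 9 of 10 lower, beside 29.1% of all genes called lower and 67.9% in either direction. The level with FAC was 13.7 times lower for EGR1, 16.0 times lower for FOS and 11.05 times lower for ARC. It was 4.12 times lower for FOSB, 3.74 for FOSL1, 2.32 for IER2, 1.77 for JUNB, 1.60 for KLF6 and 1.31 for JUN. This comparison, like that of the BafA1 changes below, uses the BafA1 libraries whose high values were known when the genes were chosen, so it is no independent test. It also crosses the difference in how gene entries were filled.

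Against untreated control, FAC+BafA1 cells had 8 of the 10 genes called higher and without overlap (22.7% of all genes had no overlap and were higher), beside 16.2% of all genes called higher and 32.9% in either direction. EGR1 was 28.3 ± 2.30 times the control level, ARC 7.49 ± 2.05 times, FOS 6.25 ± 0.715 times and FOSL1 5.24 ± 1.66 times (SE, n = 3). FOSB (log2 0.18 ± 0.11) and IER3 (log2 0.08 ± 0.12) were not called. Like FAC with control, these groups differ in how gene entries were filled. EGR1, ARC, FOS and FOSL1 passed the minimum through the libraries with BafA1, which include FAC+BafA1, so nothing is read from their calls.

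The difference between the BafA1 changes with and without FAC, the interaction, was called negative for 9 of 10 genes, beside 20.6% of all genes called negative and 50.1% in either direction. It was -3.73 ± 0.14 log2 units for EGR1, -3.59 ± 0.17 for FOS and -2.94 ± 0.21 for ARC, and lay between -1.52 and -0.61 for FOSL1, FOSB, IER2, KLF6, JUN and JUNB. IER3 was at -0.08 ± 0.17.

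How much of the response was seen with FAC depended on the scale. As a share of the increase in FPKM, the 9 genes ranged from 4.78 ± 0.741% for FOS (SE), 7.05 ± 0.741% for EGR1 and 8.13 ± 2.19% for ARC to 42.3 ± 2.91% for KLF6 and 64.3 ± 3.01% for JUN. FOSB had 15.9 ± 3.88%, FOSL1 21.9 ± 2.93%, IER2 26.5 ± 1.11% and JUNB 37.8 ± 4.55%. As a share of the log2 fold, without a pseudocount, 7 of the 9 lay between 44.9 and 54.8%, while FOS was at 31.0 ± 7.76% and JUN at 71.2 ± 2.15%. The FOS value was 40.2% without FAC replicate 1, the FAC library with the highest FOS. EGR1, with a small share of its increase, had 54.5 ± 2.36% of its log2 fold. Differences between genes in these shares were not tested. For IER3 the share is not given, since its change without FAC was within its error.

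**Figure D4:**
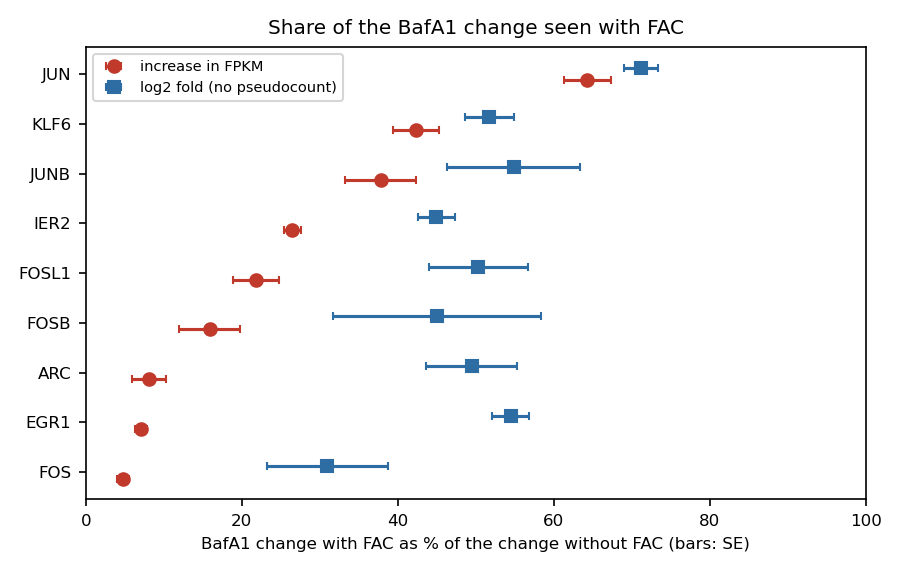
BafA1 change with FAC as a percentage of the change without FAC for 9 genes, on the scale of FPKM (red circles) and of log2 fold without a pseudocount (blue squares); bars are SE. On the FPKM scale the genes spread from 4.78% (FOS) to 64.3% (JUN), and on the log2 scale most lie near 50.3% (FOSL1).

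The make-up of the AP-1 transcripts changed with these levels. Summed over FOS, FOSB, FOSL1 and FOSL2, the FOS family averaged 2.03 ± 0.286 FPKM in control (SD, n = 3) and 47.6 ± 3.42 after BafA1, against 2.12 ± 0.274 with FAC alone and 7.13 ± 0.664 with both. The JUN family, summed over JUN, JUNB and JUND, was at 53.9 ± 1.47, 222.9 ± 14.7, 61.0 ± 2.18 and 175.5 ± 5.68 FPKM in the same order. FOS family transcripts per JUN family transcript were thus 0.0377 ± 0.00546 in control and 0.215 ± 0.0284 in BafA1, against 0.0347 ± 0.00380 with FAC alone and 0.0406 ± 0.00267 with both. The 3 BafA1 libraries (0.182 to 0.233) lay above all others (0.0310 to 0.0423).

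FOS itself went from 15.5 ± 4.77% of FOS family transcripts in control to 64.6 ± 1.86% in BafA1, against 20.9 ± 9.75% with FAC alone and 26.9 ± 1.93% with both, which overlapped. FOSB, the largest part in control by mean with 37.6 ± 5.60%, was at 8.67 ± 0.474% in BafA1, 21.7 ± 6.20% with FAC alone and 14.2 ± 2.69% with both. In control FOSL2 was at 31.2 ± 4.27% and exceeded FOSB in replicate 3 (35.8 against 31.1%). The family sum there was only 2.03 FPKM, so the control shares are imprecise. FOSL2, which encodes FRA-2, was the largest part by mean both with FAC alone (38.9 ± 9.70%) and with FAC+BafA1 (34.8 ± 0.691%). In the JUN family, JUN held 77.7 to 84.5% of the transcripts by group mean. These are transcript shares; proteins and dimers were not measured.

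**Figure D5:**
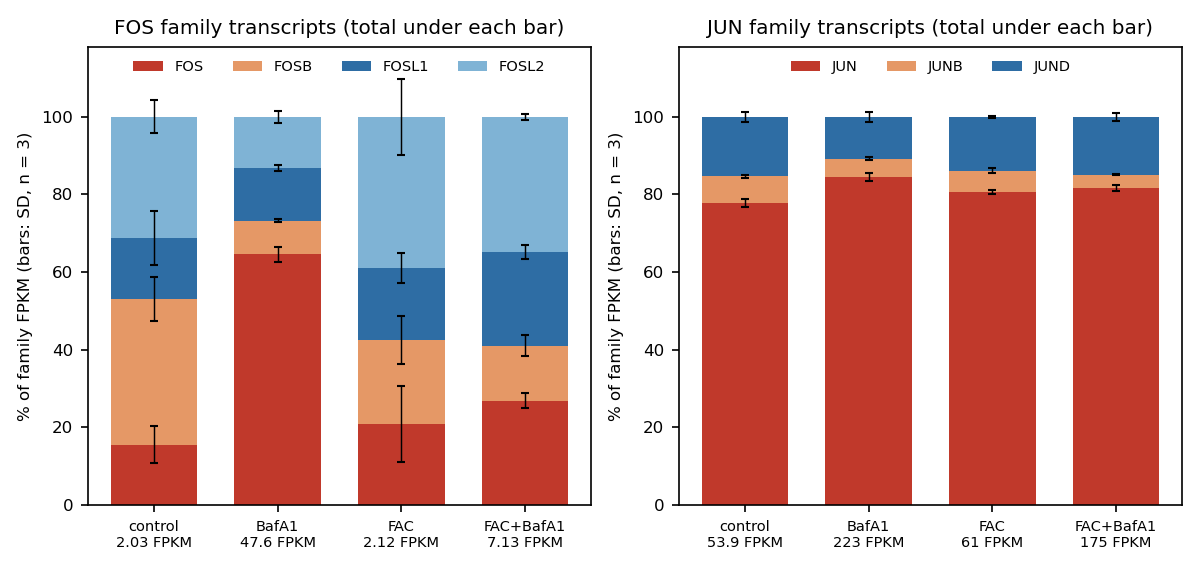
Share of each gene in the summed FPKM of the FOS family (left) and the JUN family (right) by group; bars are means of 3 libraries, error bars are SD, and the summed FPKM stands under each bar. FOS takes 64.6% of the FOS family in BafA1 and 26.9% in FAC+BafA1, while JUN stays the main part of the JUN family throughout.

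The remaining AP-1 genes and other immediate early genes were taken from lists drawn up from general knowledge with earlier results of these data known. Of 16 AP-1 partners outside the set, 12 passed the minimum, and 10 of these were called higher and 2 lower after BafA1 (median log2 change 1.43; all genes -0.04), beside 29.5% of all genes called higher and 67.1% in either direction. FOSL2 and MAFF passed the minimum only through the libraries with BafA1 and are within the counts and medians of this list. Nothing is read from their calls or from these counts. With FAC, 8 were higher and 1 lower (median 0.70), beside 9.76% of all genes called higher and 19.3% in either direction. ATF3, a stress-induced repressor and activator, went from 19.8 ± 1.52 FPKM in control to 539.4 ± 22.2 in BafA1, and from 26.3 ± 0.509 in FAC to 121.8 ± 3.43 in FAC+BafA1 (SD, n = 3). The small MAF gene MAFF went from 0.447 to 12.4 FPKM without FAC and from 0.497 to 2.03 with it, and MAFG from 6.66 to 23.4 and from 8.06 to 16.0. FOSL2 averaged 0.633 FPKM in control and 6.22 after BafA1, and 0.807 with FAC alone and 2.48 with both.

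JUND, singled out after its values were seen, was the one JUN gene whose rise was not smaller with FAC. It averaged 8.24 ± 0.801 FPKM in control (SD, n = 3) and 24.1 ± 4.60 after BafA1, and 8.47 ± 0.322 with FAC alone and 26.2 ± 2.53 with both. Its log2 changes were 1.43 ± 0.11 and 1.52 ± 0.11, and their difference was 0.09 ± 0.16 (limma adjusted p = 0.659). JUND differs in this from JUN and JUNB, for which the interaction was called; the difference between these genes was not itself tested. Outside the 10, the interaction was called negative for 9 of the 12 partners and positive for 2, BATF3 and MAF, which had fallen with BafA1. Of all genes, 20.6% were called negative and 50.1% in either direction, and nothing is read from the counts of the partners.

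Of 22 other immediate early genes, 14 passed the minimum. After BafA1, 12 of them were called higher and 1 lower (median log2 change 1.07), beside 29.5% of all genes called higher and 67.1% in either direction. NR4A2, ZFP36 and PTGS2 were among the 14 only through the libraries with BafA1, and the list was drawn up with earlier results known. Nothing is read from their calls or from the counts of this list. With FAC 10 were higher and 1 lower (median 0.41), beside 9.76% of all genes called higher and 19.3% in either direction. The interaction was called negative in 10 and positive in 1, beside 20.6% of all genes called negative and 50.1% in either direction. CSRNP1, a nuclear factor of the immediate early class, went from 1.63 to 15.01 FPKM without FAC and from 1.71 to 4.67 with it. TRIB1, a pseudokinase, went from 7.20 to 37.9 and from 7.67 to 14.8 FPKM, and CCN1, a secreted matrix protein, from 3.05 to 15.3 and from 2.89 to 6.65. PTGS2, the inducible cyclooxygenase, went from 0.703 to 7.01 and from 0.75 to 1.77 FPKM. ZFP36, which binds AU-rich elements and speeds mRNA decay, went from 0.937 to 4.90 and from 0.723 to 1.63 FPKM. IER5 was the gene called lower, from 10.95 to 7.60 FPKM.

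The relatives of EGR1 were too low to be tested. EGR2 averaged 0.0633 ± 0.0321 FPKM in control and 1.55 ± 0.242 after BafA1, against 0.133 ± 0.0306 with FAC alone and 0.36 ± 0.06 with both. EGR3 was at 0.0733 ± 0.00577, 2.40 ± 0.237, 0.0867 ± 0.0473 and 0.58 ± 0.101 FPKM in the same order. Both were highest in BafA1 and stood between in FAC+BafA1, as EGR1 did. EGR4 was at 0.113 FPKM or less in every group mean.

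Of the factors and kinases that act on immediate early promoters, all 21 passed the minimum, with 9 called higher and 4 lower after BafA1 and a median log2 change of 0.11. Of all genes, 29.5% were called higher and 67.1% in either direction. With FAC, 3 were higher and 0 lower, beside 9.76% of all genes called higher and 19.3% in either direction. Nothing is read from the counts of this list. The largest changes were those of RPS6KA1, a kinase downstream of ERK, at -0.87 ± 0.05, ELK3 at -0.62 ± 0.08 and MAPK8, which encodes the stress kinase JNK1, at 0.54 ± 0.06 (limma adjusted p = 3.28e-08, 1.35e-05 and 1.13e-05). MAP2K1 (0.53 ± 0.05) and RPS6KA5 (0.53 ± 0.06) followed. SRF, the factor that binds the CArG box, averaged 16.9 ± 0.292 FPKM in control and 15.9 ± 0.979 after BafA1 (limma adjusted p = 0.165).

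Of 10 EGR corepressors and mRNA decay factors, 3 were called higher and 5 lower after BafA1 (median log2 change -0.11). With FAC, 2 were higher and 2 lower. Of all genes, 29.5% were called higher and 67.1% in either direction after BafA1, against 9.76% and 19.3% with FAC. Nothing is read from the counts of this list. TOB1, an antiproliferative deadenylation adaptor, fell by 1.24 log2 units (SE 0.05, limma adjusted p = 1.12e-09), and NAB2, which binds EGR1 and represses its targets, fell by 0.51 (SE 0.09, limma adjusted p = 0.000322). ZFP36, ZFP36L1 and ZFP36L2, the decay factors of one family, rose by 1.61, 0.97 and 0.70. ZFP36 passed the minimum only through the libraries with BafA1, and nothing is read from its call. Among 17 genes known as AP-1 or EGR1 targets in other cells, 9 passed the minimum. After BafA1, 3 were called higher and 2 lower, with a median of 0.06. The shares of all genes called are those given above, and nothing is read from these counts. TNFRSF12A, a cytokine receptor, went from 3.68 ± 0.656 to 49.9 ± 1.97 FPKM, HBEGF, a growth factor, rose by 0.71 ± 0.10 and EMP1 by 0.46 ± 0.18 log2 units (limma adjusted p = 5.42e-05 and 0.0435). CCND1 (cyclin D1) and SPHK1 (a sphingosine kinase) fell by 0.73 and 0.68. With FAC, 2 of the 9 were called higher and 0 lower, beside 9.76% of all genes called higher and 19.3% in either direction. MMP1 and MMP3, classical AP-1 targets, were at or under 0.11 FPKM in every group mean.

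The tested genes with the most similar profiles were found by Pearson's r on log2(FPKM + 1) over the 12 libraries. These points fall into 4 groups and share depth and processing, so r mostly compares group means and carries no p. Closest to EGR1 were KIF5C (r = 0.998), a neuronal kinesin that went from 5.11 to 12.6 FPKM without FAC and from 5.07 to 7.81 with it, and CCN1 (0.997). Closest to FOS were HSPA13, CCNB1IP1 and HK2 (0.996 to 0.997), and closest to ARC were CLK1, MAFF and KLF4. JUN was most like HSPB8 (0.997), a small heat shock protein at 0.453, 12.6, 0.933 and 8.59 FPKM in control, BafA1, FAC and FAC+BafA1, followed by TIMP3 and TNFRSF12A.

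FOSL1 was most like TRIB1, TMEM39A and GPR3, FOSB most like MAPK6, STX5 and PMAIP1, and KLF6 most like MAFG (0.998), CDKN1A and SEMA3C. DUSP1, a phosphatase that switches off MAP kinases, was among the 3 closest genes of both IER2 and JUNB, at 9.51, 69.6, 8.75 and 22.5 FPKM in the same order of groups. For IER3 the highest value was 0.80 (MAST4). Among the 10, the highest r were between FOS and ARC and between EGR1 and FOSL1 (both 0.993), JUN and FOSB were at 0.78, and IER3 was at 0.33 to 0.45 with the rest.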

How the data were processed

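The authors deposited 1 table of FPKM for 56340 gene entries in 12 libraries. STAR, RSEM and the build GRCh38 are named per the submitters' processing notes, and for versions, annotation release and strand setting the answer is: not given in the sources used here. Per the labels' protocols, libraries came from a stranded mRNA kit. After removal of 3 repeated IDs listed at 0, 56104 of 56337 IDs were named from a gene ID table of the reference, and members were matched on the symbol in the deposited table. Depth was estimated from the spacing of low FPKM values in genes with 1 listed transcript, by settings chosen after seeing the data. In the libraries without FAC, 55.5 to 60.4% of these values lay within 0.2 of a whole fragment, and in those with FAC 70.9 to 74.3%. This split goes with FAC, as does the filling of gene entries, and its part in the results was not tested. With such shares no counts were recovered and no count test was run. At these depths and the length of the canonical transcript, control means correspond to an estimated 18.3 fragments for FOSL1, 21.4 for FOS, 27.7 for ARC, 52.0 for EGR1 and 4658 for JUN.

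Values were taken as log2(FPKM + 1), the 13682 genes averaging 1 FPKM or more were kept, and the 4 group means were fitted with limma 3.58.1 in R 4.3.3 with an intensity trend, adjusting over all genes within each of 6 comparisons. The fit was tested on simulated data. The alternatives were a pseudocount of 0.1, no minimum or a mean of at least 5 FPKM, median-of-ratios scaling, quantile normalization, no trend, a replicate block, the 2 groups alone and each library left out. The members and lists were chosen with earlier results of these data known. All 10 members were named, with up to 5 tested genes per list (the largest BafA1 changes) and the 3 most similar genes per member, apart from a few that are not reported here; other genes named were chosen after their values were seen. Gene overlaps came from GENCODE release 44 on GRCh38, and promoter windows from hg38 at RefSeq starts.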

Additional observations from a re-analysis of the deposited data

Results flagged for a closer look

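For 9 of the 10 genes the change after BafA1 differed between cells with and without FAC by the interaction test in the limma fit. The same test called 50.1% of all genes in either direction and 20.6% negative. The difference, change with FAC minus change without, was -3.73 log2 units for EGR1, -3.59 for FOS, -2.94 for ARC, -1.52 for FOSL1, -1.09 for FOSB, -1.03 for IER2, -0.89 for KLF6, -0.62 for JUN and -0.61 for JUNB. Each gene rose in both settings and rose less with FAC. The genes were proposed with their BafA1 values known, so these differences describe them and do not test them anew.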

How the results depend on the processing

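Of 1172 values of single genes under the alternatives, 1167 kept their side of the threshold, 4 lost the call and 1 gained it. No called value changed sign, while 9 values of uncalled changes did, for ARC, FOS and FOSL1 in FAC with control and for IER3 in several comparisons. Lost were KLF6 for FAC with control (without control replicate 2, FAC replicate 1 or FAC replicate 2) and FOSB for FAC+BafA1 with FAC (without FAC+BafA1 replicate 2, limma adjusted p = 0.051). IER2 was gained for FAC with control when no minimum was set (limma adjusted p = 0.0478). The number of the 10 genes called for FAC with control was 1 to 2 with each library left out. The number of all genes called for FAC with control went from 1308 to 4486 with no minimum and to 402 with a mean of at least 5 FPKM, and for FAC+BafA1 with control from 4498 to 7643 with no minimum, where 36431 genes were tested in place of 13682. With a mean of at least 5 FPKM, FOSB, FOSL1 and IER3 were not tested. Same-numbered libraries of different groups had correlations of their deviations of -0.07 to 0.14, above 0.1 in 1 of 18 pairs. No strong shared deviation was thus seen, and the main fit did not pair the libraries. Such correlations cannot show whether same-numbered libraries were handled together. With a replicate block the fit called 9082 genes for BafA1 with control, 2366 for FAC+BafA1 with FAC, 1298 for FAC with control, 9212 for FAC+BafA1 with BafA1, 4287 for FAC+BafA1 with control and 6702 for the interaction, and 9, 9, 2, 9, 8 and 9 of the 10 members, as many as without the block. Low FPKM limit the precision of the ratios for FOSL1, FOS and ARC, whose starting levels rest on few fragments.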
